A study of Mus musculus with 3 samples.

Results

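The genes described are 10 members of the Hippo pathway, measured in the ureter of the mouse embryo: the coactivator genes Yap1 and Wwtr1, the transcription factor genes Tead1, Tead2, Tead3 and Tead4, the kinase genes Lats1 and Lats2, and the target genes Ccn1 and Ccn2. They were chosen by name, as every probe set whose platform annotation gives exactly 1 symbol equal to one of these, and all 10 genes were found, with 24 probe sets of 34958 that carry 1 symbol. The older symbols Cyr61 and Ctgf count as Ccn1 and Ccn2. The level of a gene is that of whichever of its probe sets had the highest mean log2(signal + 1), and the arrays hold 18194 genes measured in this way.

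The samples form 1 group of 3 ureters (replicates 3, 8 and 9) from FVB/N embryos labelled wild-type, of unknown sex, at embryonic day 15 (Theiler stage 23). The ureter was taken whole between renal pelvis and bladder, so each RNA is a mixture of epithelium, mesenchyme, muscle and any tissue dissected with them. Every group property is shared by the 3 samples, and with no second group there is no contrast and no test; levels, their spread and their order over the arrays are given as a description. Per the labels no sample was pooled, but they do not tell if the 3 are from different embryos or litters, and the spread may be technical in part.

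In the Hippo pathway, the kinases STK3 and STK4 with their adaptor SAV1 activate LATS1 and LATS2, which act with MOB1 proteins. LATS kinases phosphorylate YAP and TAZ (the product of Wwtr1), and this keeps the coactivators in the cytoplasm, bound to 14-3-3 proteins, or marks them for degradation. Unphosphorylated YAP and TAZ enter the nucleus, bind TEAD factors and switch on genes such as Ccn1 and Ccn2. The pathway reads cell contact, polarity and tension, and controls growth in many embryonic organs. Transcript levels do not show the phosphorylation state of these proteins.

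Promoter windows are printed for both coactivator genes and for Ccn1, the one of the 2 target members whose level varied more between the arrays, because each holds GGAATG, the core of the motif that TEAD factors bind. Windows run from 250 bases before to 50 bases after a RefSeq gene start on GRCm38.p6, written 5′ to 3′ on the strand of the gene, and capitals mark GGAATG or its complement CATTCC.

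Yap1, chr9:8004547-8004846, minus strand:
Yap1: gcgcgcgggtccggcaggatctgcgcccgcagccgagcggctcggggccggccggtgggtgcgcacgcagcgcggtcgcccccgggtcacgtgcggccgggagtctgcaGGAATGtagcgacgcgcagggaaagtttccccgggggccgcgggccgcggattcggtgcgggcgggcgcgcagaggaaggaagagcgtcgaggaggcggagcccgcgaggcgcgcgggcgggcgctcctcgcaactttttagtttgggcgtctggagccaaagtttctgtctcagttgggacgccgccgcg
Wwtr1, first of 2 windows, chr3:57575861-57576160, minus strand:
Wwtr1: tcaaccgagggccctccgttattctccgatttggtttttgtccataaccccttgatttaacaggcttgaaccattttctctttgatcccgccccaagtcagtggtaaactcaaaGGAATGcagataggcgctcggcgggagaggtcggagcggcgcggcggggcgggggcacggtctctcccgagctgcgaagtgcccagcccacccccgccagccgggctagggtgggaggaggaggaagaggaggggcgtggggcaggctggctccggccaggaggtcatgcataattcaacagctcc
Ccn1, chr3:145649936-145650235, minus strand:
Ccn1: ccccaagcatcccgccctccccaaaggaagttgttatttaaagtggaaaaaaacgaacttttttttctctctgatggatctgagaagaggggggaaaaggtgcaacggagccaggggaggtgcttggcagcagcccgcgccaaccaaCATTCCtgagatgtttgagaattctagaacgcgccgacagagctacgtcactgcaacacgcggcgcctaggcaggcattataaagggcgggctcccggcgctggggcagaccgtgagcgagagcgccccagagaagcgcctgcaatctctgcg

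The match begins 141 bases before the start in Yap1, 136 bases in this Wwtr1 window and 103 bases in Ccn1, where it lies on the opposite strand. In the Ccn1 window TATAAA, the TATA box core, begins 25 bases before the start. Of the 10 genes, 7 had at least 1 window, and Tead1, Tead4 and Ccn2 had none. GGAATG on either strand was in a window of 5 of these 7 genes (Yap1, Wwtr1, Tead3, Lats2 and Ccn1), not in those of Tead2 or Lats1. Over all 27025 genes with a window the share was 16.6%, and over all 32851 windows 14.7%. Genes with several starts have several chances, and Tead3 had 3 windows. The CArG box, the motif of serum response factor, was in no window of the 7 genes and in 1.63% of all windows. At so low a share, its absence is not particular to these genes. A match is a run of letters, and binding was not measured.

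Of the 10 Hippo genes, 9 were above background on all 3 arrays, against 56.2% of all named genes. Background was the 95th percentile of 55 genes of unrelated tissues, among them retina, testis and lens, which was a signal of 326, 279 and 438 in replicates 3, 8 and 9. Tead4 was the gene not above it. Probe sets differ in brightness for reasons other than transcript abundance, so signals are set against background and between arrays, not between genes. In a whole organ, fewer cells of a type and less RNA per cell cannot be told apart.

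**Figure D1:**
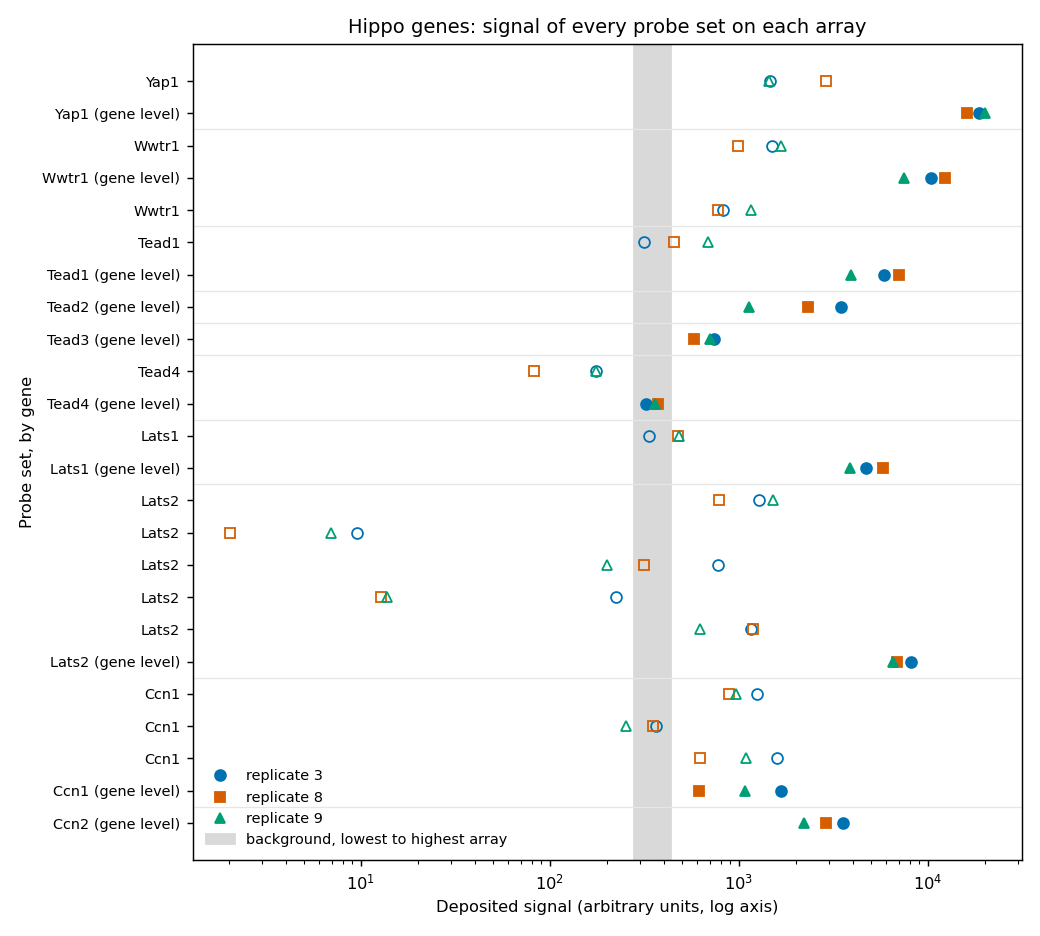
Signal (log axis) of each of the 24 probe sets of the 10 Hippo genes, by array; filled symbols are the probe sets that give the gene level, open symbols the others, and the grey band runs from the lowest to the highest background of the 3 arrays. Yap1, Wwtr1, Tead1, Lats1 and Lats2 have a bright probe set and dimmer ones, and the brighter Tead4 probe set lies in the band and the other below it.

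Yap1 encodes the coactivator YAP. In replicates 3, 8 and 9 its signals were 18728, 16019.7 and 19966 (mean 18238 ± 2018, SD, n = 3, as for each mean ± SD). The 3 arrays differed by a log2 range of 0.32, which is the log2 value of the highest array minus that of the lowest; the median range of all genes above background was 0.55. The other Yap1 probe set had signals of 1452, 2898 and 1439.7 in replicates 3, 8 and 9, above background on each. It was highest in replicate 8, the array on which the brighter one was lowest.

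Wwtr1 encodes TAZ, the paralog of YAP. Its brightest probe set had signals of 10317, 12244 and 7510.4 in replicates 3, 8 and 9 (mean 10024 ± 2381; log2 range 0.71). Its other probe sets, both above background, had 1489, 983 and 1663 in the same order of replicates, and 821, 771 and 1159. Both were highest in replicate 9 and lowest in replicate 8, the reverse of the brightest. With the mean of the 3 probe sets as the gene level the range of Wwtr1 was 0.21, so the direction of its difference between arrays depends on the probe set.

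TEAD proteins bring YAP and TAZ to DNA, and the 4 genes differed in how they stood against background. Tead1 had signals of 5859, 7055 and 3911 in replicates 3, 8 and 9 (mean 5608 ± 1587; log2 range 0.85). It was 8.93 to 25.2 times background, lowest in replicate 9. Its other probe set, with 313, 453 and 684, was above background on 2 arrays and highest in replicate 9, where the brighter one was lowest.

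Tead2, a TEAD gene known for its expression in embryonic tissues, had signals of 3475, 2309.9 and 1124 in replicates 3, 8 and 9 (mean 2303 ± 1175). Its log2 range of 1.63 was the largest among the 10 genes. The arrays were well apart, with replicate 9 nearest to background at 2.57 times, and Tead2 has a single probe set, so no other measures it here. Without replicate 9 its range was 0.59, and without replicate 3 it was 1.04.

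Tead3 had signals of 736, 582 and 701 in replicates 3, 8 and 9 (mean 673 ± 81; log2 range 0.34), 1.60 to 2.25 times background from its single probe set. It was above background on each array, but not when background was raised to the 99th percentile of those 55 genes. Tead4, a TEAD gene required in mouse for the trophectoderm of the early embryo, had 324, 374 and 358 in replicates 3, 8 and 9 (mean 352 ± 26). This was above background in replicate 8 and below it in replicates 3 and 9. The other Tead4 probe set, with 175, 82 and 176, was below background on each array. With the 90th percentile as background Tead4 was above it, and it was likewise with the 95th percentile but without Cela1 and Cbln1, the 2 reference genes that were themselves above background. The count was 10 of 10 genes in both cases. The background shares were then 60.6% and 59.7%.

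Both kinase genes, which restrain YAP and TAZ, were above background. Lats1 had signals of 4701, 5814 and 3862 in replicates 3, 8 and 9 (mean 4792 ± 979; log2 range 0.59). Its other probe set had 333, 473 and 480.4, close above background on each array. Replicate 9 was the lowest array by the first probe set and the highest by the second.

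Lats2, itself a target of YAP in many cells, has 6 probe sets, the most among the 10 genes. The brightest had signals of 8121, 6877 and 6523 in replicates 3, 8 and 9 (mean 7174 ± 839; log2 range 0.32). It ends in _x_at, the suffix of probe sets that may cross-hybridise; without such probe sets Lats2 was still above background, with a range of 0.94. Of the other probe sets, 2 were above background on each array (1276, 787 and 1505, and 1153, 1185 and 623), and they disagreed on which array was lowest. A further probe set had 770.2, 315 and 199, above background on 2 arrays, and the last 2 were below it on each, with signals down to 2.04. With the mean of its 6 probe sets Lats2 was not above background.

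Ccn1 and Ccn2 encode secreted matricellular proteins, which bind integrins and matrix, and are the most used readouts of YAP and TAZ activity. Ccn1 had signals of 1662, 617 and 1072 in replicates 3, 8 and 9 (mean 1117 ± 524). The log2 range of 1.43 was the second largest among the 10 genes, and even the lowest array was 2.21 times background. Of its other probe sets, one followed closely (1584, 622 and 1089; range 1.35). Another had the same order of arrays but a narrower range (1248, 886 and 959; range 0.49). The last, with 362, 350.5 and 252, was above background on 2 arrays. The first and second of these end in _x_at. All 4 Ccn1 probe sets were highest in replicate 3. The range was 0.63 without replicate 8. Without replicate 3 it was 0.11 and without replicate 9 it was 0.49, both from the probe set with the narrower range, which then had the highest mean.

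Ccn2, known as a growth factor of connective tissue, had signals of 3544, 2879 and 2213 in replicates 3, 8 and 9 (mean 2879 ± 666; log2 range 0.68) from 1 probe set. It lay 5.05 to 10.9 times above background and was highest in replicate 3, as was Ccn1, but lowest in replicate 9, where Ccn1 was intermediate.

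**Figure D2:**
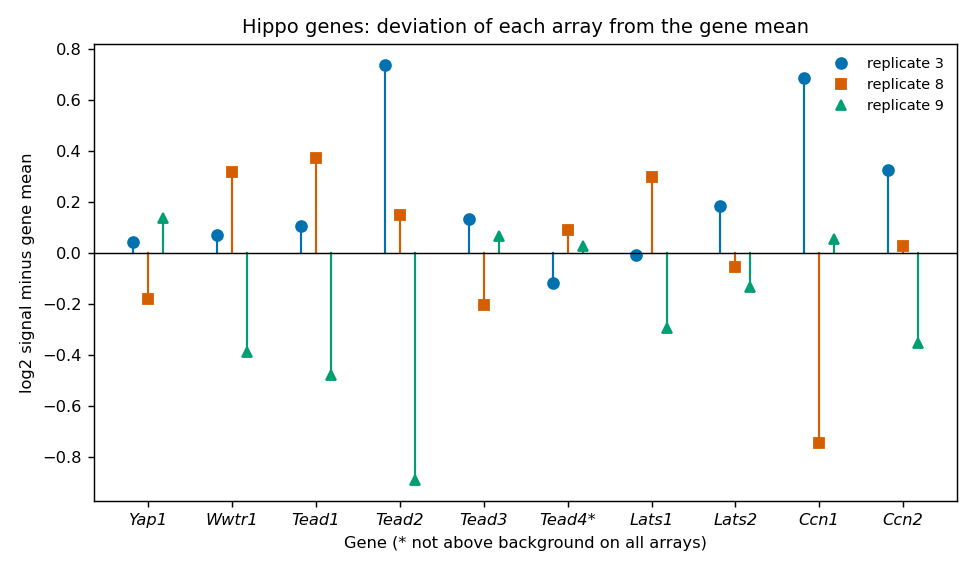
Deviation of each array from the mean log2 signal of each of the 10 Hippo genes, at the probe set that gives the gene level. Tead2 spans 1.63 and Ccn1 1.43, and replicate 9 is the lowest array for 6 of the 9 genes above background.

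Over the 9 genes above background, 2 (Tead2 and Ccn1) had a log2 range of at least 1, against 15.1% of all genes above background. The median range was 0.68. Leaving out replicate 9 lowered the range of Tead1 to 0.27, of Wwtr1 to 0.25 and of Ccn2 to 0.30, and with the mean of its probe sets Tead1 had a range of 0.40. Without replicate 8 the ranges of Yap1, Tead3 and Lats1 were 0.09, 0.07 and 0.28, and without replicate 3 that of Lats2 was 0.08. The 9 genes followed 4 of the possible orders of arrays. Wwtr1, Tead1 and Lats1 were highest in replicate 8 and lowest in replicate 9. Tead2, Lats2 and Ccn2 were highest in replicate 3 and lowest in replicate 9. Ccn1 and Tead3 were highest in replicate 3 and lowest in replicate 8, and Yap1 was highest in replicate 9. Replicate 3 was thus the highest array for 5 of 9 genes, against 33.1% of all genes above background, replicate 8 for 3 (35%) and replicate 9 for 1 (32%). The lowest array was replicate 9 for 6 of 9 genes, against 38.6%, and replicate 8 for 3 (30.9%), while no member was lowest in replicate 3 (30.6%). After quantile normalization between arrays replicate 9 was the lowest for 5 of 9, against 40.9%, because Lats2 changed place.

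Probe sets of one Hippo gene often disagreed on the highest array. For 5 of the genes the brightest pair of probe sets was above background, and in 1 of them (Ccn1) both were highest on the same array. Among all 3632 genes with such a pair the share was 46.3%. Among the 6 members above background that have more than 1 probe set, 3 had a probe set that was not above it, against 74.6% of 6689 genes. Control probe sets at the ends of the beta-actin transcript, which show the reach of the labelled RNA towards its 5′ end, gave a 5′ signal of 13.4%, 15.4% and 25.0% of the 3′ signal in replicates 3, 8 and 9. For Gapdh the shares were 5.30%, 6.62% and 6.11%. The part of this in the differences between probe sets was not tested.

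Marker lists of the ureter and of other tissues are read against the 56.2% of all named genes above background. Urothelial genes were above background for 9 of 10 (first in the list Krt8, Krt18 and Krt19, keratins), smooth muscle genes for 6 of 8 (Acta2, Actg2 and Tagln) and ureter mesenchyme genes for 8 of 8 (Tbx18, Tshz2 and Tshz3). The uroplakin gene Upk3a and the muscle genes Cnn1 and Myocd, named after their values were seen, were not above it on each array. Upk3a and Cnn1 were above background in replicate 8, and Myocd in replicates 8 and 9 (209, 1001 and 776 in replicates 3, 8 and 9). Outside the ureter wall, hepatocyte genes were above background for 8 of 8 (Alb, Afp and Ttr), erythroid genes for 6 of 6 (Hbb-y, Hba-x and Alas2) and skeletal muscle genes for 7 of 8 (Myh3, Acta1 and Mylpf). Endothelial genes were above it for 6 of 8 (Cdh5, Tek and Kdr) and macrophage genes for 7 of 8 (Csf1r, Adgre1 and Mrc1). Neuron and glia genes were above it for 4 of 6 (Stmn2, Elavl4 and Tubb3, the last above it on 2 arrays only). Nephron genes were above it for 1 of 7 (not Nphs1, Slc34a1 or Slc12a1). Shares such as 66.7% for neuron and glia genes and 75.0% for smooth muscle and endothelial genes lie near that of all genes, and the source of these signals was not tested.

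Some of these lists are given beside Ccn1, array by array. The hepatocyte list, summed over 8 genes, had signals of 216750.0, 116382 and 165337 in replicates 3, 8 and 9. Each of its genes was highest in replicate 3 and lowest in replicate 8, the order of 14.7% of all genes above background. The median deviation of this list from the gene mean was 0.68, −0.55 and −0.03 (log2) in replicates 3, 8 and 9, against 0.69, −0.74 and 0.05 for Ccn1. The erythroid list summed to 162820.0, 77828 and 119324, with median deviations of 0.83, −0.70 and 0.04. The macrophage list had median deviations of 0.37, −0.54 and 0.21, but its sums of 22816, 13223 and 29758 were highest in replicate 9. Of the immediate early list, genes that respond within minutes to stimuli or handling as Ccn1 also does, 11 of 14 were above background, and 8 of these 11 were highest in replicate 3 (33.1% of all genes above background were), 2 in replicate 8 and 1 in replicate 9. Its median deviations were 0.20, 0.02 and −0.21, lowest in replicate 9. Ccn1 at its gene level was lowest in replicate 8, but its dimmest probe set was lowest in replicate 9 (0.19, 0.14 and −0.33). Of the 11 genes, 5 were lowest in replicate 9 (38.6% of all genes above background were) and 4 in replicate 8 (30.9%). These 4 were also highest in replicate 3, the order of Ccn1 at its gene level. Fos had signals of 5250.1, 1970.2 and 2496 in replicates 3, 8 and 9, and Ier3, named after its values were seen, 3001, 727 and 1171. Egr1 and Myc, also named after their values were seen, had 7235, 10563 and 7294 and 3057, 3191 and 3782. Jun had 5878, 5495 and 4567, and Fosb, with 168, 112 and 126, was not above background. The part of other tissues or of handling in the Ccn1 signal was not tested.

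**Figure D3:**
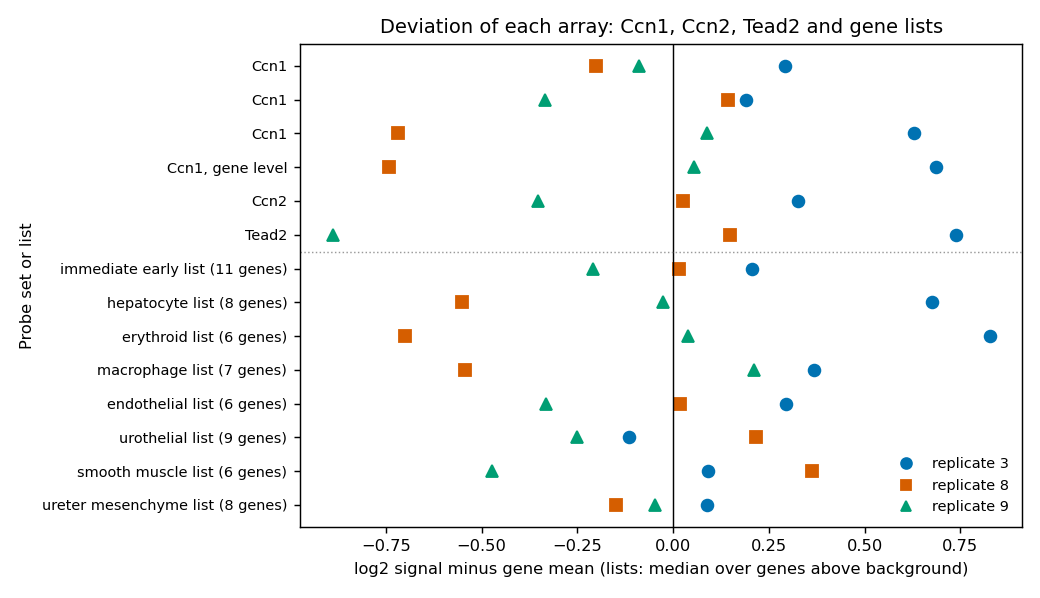
Deviation of each array from the gene mean (log2) for the 4 Ccn1 probe sets, Ccn2 and Tead2, and below the dotted line the median deviation over the genes above background in 8 lists. Replicate 3 is highest and replicate 8 lowest for Ccn1 at its gene level (0.69 and −0.74). The same holds for the hepatocyte (0.68 and −0.55), erythroid (0.83 and −0.70), macrophage (0.37 and −0.54) and ureter mesenchyme lists (0.09 and −0.15). The dimmest Ccn1 probe set is lowest in replicate 9 (−0.33).

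Among the lists of the ureter wall, the smooth muscle list had median deviations of 0.09, 0.36 and −0.47 in replicates 3, 8 and 9, and the urothelial list −0.11, 0.22 and −0.25. Both medians were highest in replicate 8 and lowest in replicate 9. At their brightest probe sets the same held for Wwtr1 (0.07, 0.32 and −0.39), Tead1 (0.11, 0.37 and −0.48) and Lats1 (−0.01, 0.30 and −0.29). Every other probe set of these 3 genes was highest in replicate 9. Replicate 8 highest and replicate 9 lowest was the order of 20.3% of all genes above background. The urothelial list summed to 45463, 62186 and 39804, and the smooth muscle list to 76014, 77936 and 66892. The smooth muscle genes did not share 1 order: of the 6 above background, 3, 2 and 1 were highest in replicates 3, 8 and 9. Of the 9 urothelial genes above background, 2, 6 and 1 were. Over all genes above background the shares highest in replicates 3, 8 and 9 were 33.1%, 35% and 32%. The endothelial list had median deviations of 0.29, 0.02 and −0.33, against 0.33, 0.03 and −0.35 for Ccn2 and 0.74, 0.15 and −0.89 for Tead2. Of its 6 genes above background, 4, 1 and 1 were highest in replicates 3, 8 and 9, and Kdr ran the other way (1049, 1442 and 2950). The order of Ccn2 and Tead2 was that of 18.3% of all genes above background. The ureter mesenchyme list deviated by 0.09, −0.15 and −0.05 and summed to 153884, 130114 and 144107, highest in replicate 3 and lowest in replicate 8. This was the order of Ccn1, with smaller differences, and of 14.7% of all genes above background. The part of tissue composition in these differences was not tested.

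The genes nearest to a member over the 3 arrays were found by the root mean square difference between deviations from the gene mean, over the 10218 other genes above background. Nearest to Ccn1 were Apoa2, an apolipoprotein gene of the hepatocyte list (6521, 2429 and 4199.9 in replicates 3, 8 and 9; difference 0.003 on the log2 scale), Cideb (0.02) and Cd200 (0.02). Nearest to Tead2 were Jade1 (0.02), Khnyn (0.02) and Wdr89 (0.03), and nearest to Ccn2 were Ttpa, Dhx8 and Mpi, each at 0.01. With 3 arrays such matches are common: 53 genes lay within 0.1 of Ccn1, 16 of Tead2 and 512 of Ccn2.

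Of the rest of the kinase cascade, each gene analysed was above background. The kinase gene Stk4 had signals of 16796, 13762 and 17926 in replicates 3, 8 and 9, and its adaptor gene Sav1 3366, 3731 and 2793. The MOB1 genes, whose proteins bind and activate LATS kinases, had 15295, 16147 and 12506 (Mob1a) and 1952, 1522 and 1126 (Mob1b). All 4 of these genes were above background on each array, beside 56.2% of all named genes, with log2 ranges of 0.37 to 0.79. Of 5 genes listed for this part, 4 were measured, and Stk3 was not analysed here.

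Regulators upstream of the kinases were above background for 15 of 19 genes, against 56.2% of all named genes. With the mean of probe sets as the level, Wwc2, Rassf1 and Dlg5 were no longer above it, and 44.4% of all named genes were. Nf2, the gene of the scaffold protein Merlin, had signals of 1473, 2779 and 2216 in replicates 3, 8 and 9, and its partners Wwc1, the gene of KIBRA, and Frmd6 averaged 3776 ± 169 and 3025 ± 1127. The giant cadherin genes Fat1 and Fat4 averaged 22014 ± 3193 and 7574 ± 2240.2, whereas Dchs1, which encodes the ligand of FAT4, was below background on each array (78, 254 and 126). Genes of the angiomotins, which hold YAP at junctions, averaged 17913 ± 3824 (Amot) and 7719 ± 2128 (Amotl1). The LIM protein genes Ajuba and Limd1, whose products inhibit LATS kinases, had 15603, 15516 and 15085 and 2221, 4479 and 11173. Ajuba thus spanned a log2 range of 0.05 and Limd1 2.33, but the other Limd1 probe set, with 3342, 3448 and 3333, spanned 0.05. Of the TAO kinase genes, which activate STK3 and STK4, Taok1 was above background (3332 ± 831), Taok2 was below it on each array (71, 9.06 and 74), and Taok3 was above it in replicates 8 and 9 (213, 529.9 and 1721). The kinase gene Map4k4 (5985 ± 1982), Rassf1 (2879 ± 893), Wwc2 (3199.7 ± 569) and the polarity genes Scrib (873 ± 214) and Dlg5 (2742 ± 116) were above background, and the polarity gene Crb3 was above it on 2 arrays (459, 596 and 411).

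Cofactors of the vestigial-like family bind TEAD proteins in place of YAP and TAZ. Of 4 genes, Vgll2 (2701, 2245 and 3315 in replicates 3, 8 and 9) and Vgll3 (4800.1, 4541 and 3686) were above background. Vgll1 was below it on each array, at 24, 30.1 and 29. Vgll4, whose product represses TEAD targets, was above it in replicate 9 (192, 149 and 1231). Vgll2 is a gene of skeletal muscle, and the skeletal muscle list was above background for 7 of 8 genes; where the Vgll2 signal came from was not tested.

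Genes whose products retain or degrade YAP and TAZ were above background for 9 of 10. These were the 14-3-3 genes Ywhab, Ywhae, Ywhag, Ywhah, Ywhaq and Ywhaz, with means from 13978 ± 1729.7 (Ywhah) to 54753 ± 9707 (Ywhab), the casein kinase genes Csnk1d (26299 ± 2675) and Csnk1e (1349.7 ± 398) and the ubiquitin ligase gene Btrc (1161 ± 143). The exception was Sfn, the 14-3-3 gene of stratified epithelia, with 107, 9.74 and 11.0 in replicates 3, 8 and 9. Over the 4 pathway lists together, 30 of 37 genes were above background, beside the same 56.2% of all named genes. Of the 30, 1 (Limd1) had a log2 range of at least 1, against 15.1% of all genes above background.

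**Figure D4:**
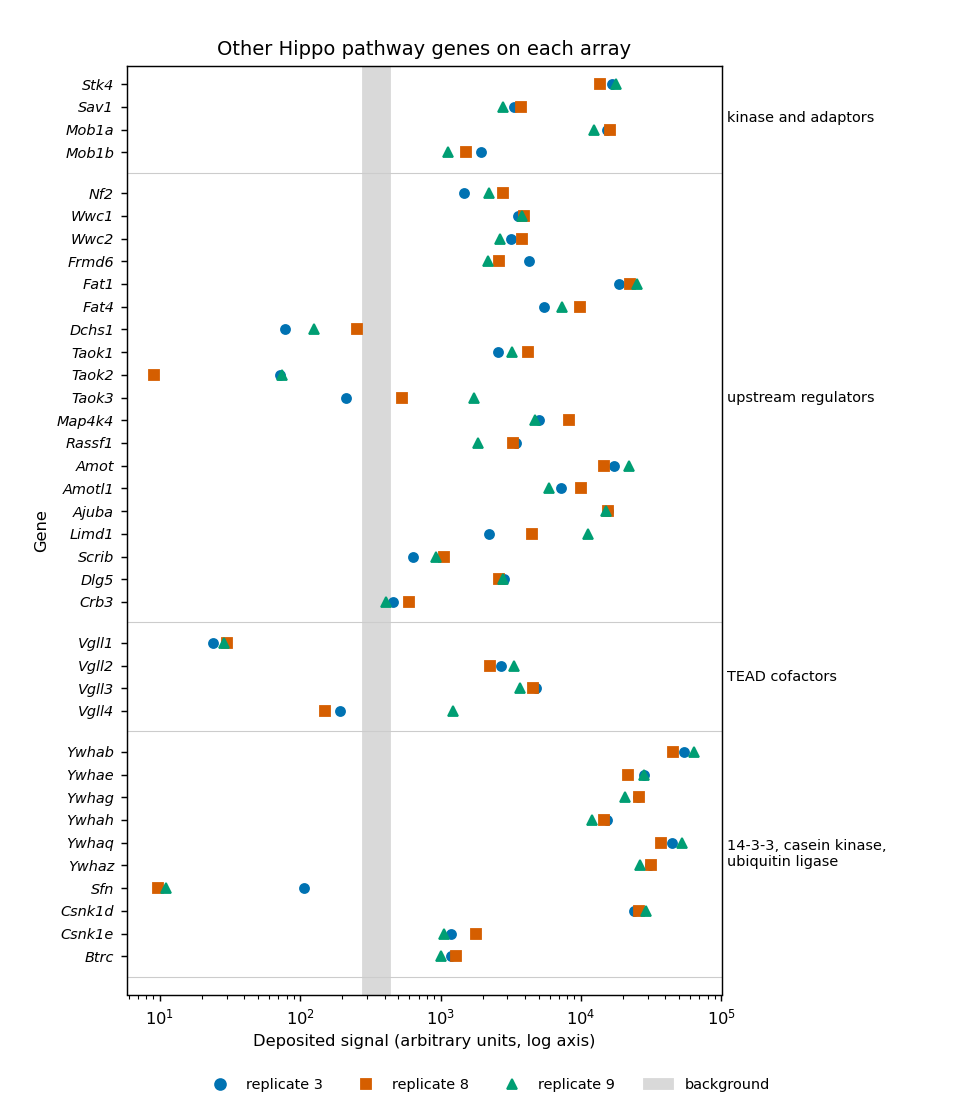
Signal (log axis) on each array of the 37 measured genes of 4 Hippo pathway lists, with the background of the 3 arrays as a grey band. The 30 genes above background lie to the right of the band, and Limd1 spans a log2 range of 2.33.

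Of 19 further genes often used as YAP and TAZ targets, 12 were above background (63.2%), close to the 56.2% of all named genes. They included Amotl2, an angiomotin gene that acts back on YAP (2785, 2925 and 2180.4 in replicates 3, 8 and 9), Ptpn14, the gene of a YAP-binding phosphatase (3702, 5053 and 4175), and the receptor kinase gene Axl (2988, 2160.2 and 5643). Asap1 (7135 ± 999), Ccdc80 (14185 ± 2064), Igfbp3 (5689 ± 1169), Dock5 (1941 ± 360), Arhgef17 (607 ± 58) and Rbms3 (34325 ± 13817) were also above background. Ankrd1, a target gene with wide use in cell culture, was above it on 2 arrays (404, 580.1 and 222). So were Myof (448, 569.99 and 388), the tissue factor gene F3 (362, 388 and 229.8), Nt5e (721, 503 and 362), Fjx1 (239.8, 282 and 453) and Foxf2 (423, 122 and 496). Crim1 was below background on each array (93, 114 and 118). Thus 18 of 19 genes were above background on at least 2 arrays, against 61.7% of all named genes, and 16 of 19 without replicate 9, against 60.0%. The count was 9 of 19 with the 99th percentile as background, against 47.2%, and 9 of 19 with the mean of probe sets, against 44.4%.

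Of the 12 target genes above background, 5 had a log2 range of at least 1, against 15.1% of all genes above background. The stress gene Gadd45a (1196, 426 and 794 in replicates 3, 8 and 9) and the kinase gene Nuak2 (1237, 479 and 592) were highest in replicate 3 and lowest in replicate 8. This was the order of Ccn1 and of 14.7% of all genes above background. The growth factor gene Tgfb2 (2236, 1914 and 7809), Axl and Rbms3 (23239, 29930.3 and 49805) were highest in replicate 9. A second Tgfb2 probe set was also highest there (475, 534 and 3975), but the other 2 had log2 ranges of 0.36 and 0.32. Likewise a second Rbms3 probe set had a wide range (1032, 1674 and 3608), but the other 2 had log2 ranges of 0.22 and 0.35. The target list had no common order of arrays: 3, 6 and 3 genes were highest in replicates 3, 8 and 9. Over all genes above background the shares were 33.1%, 35% and 32%.

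**Figure D5:**
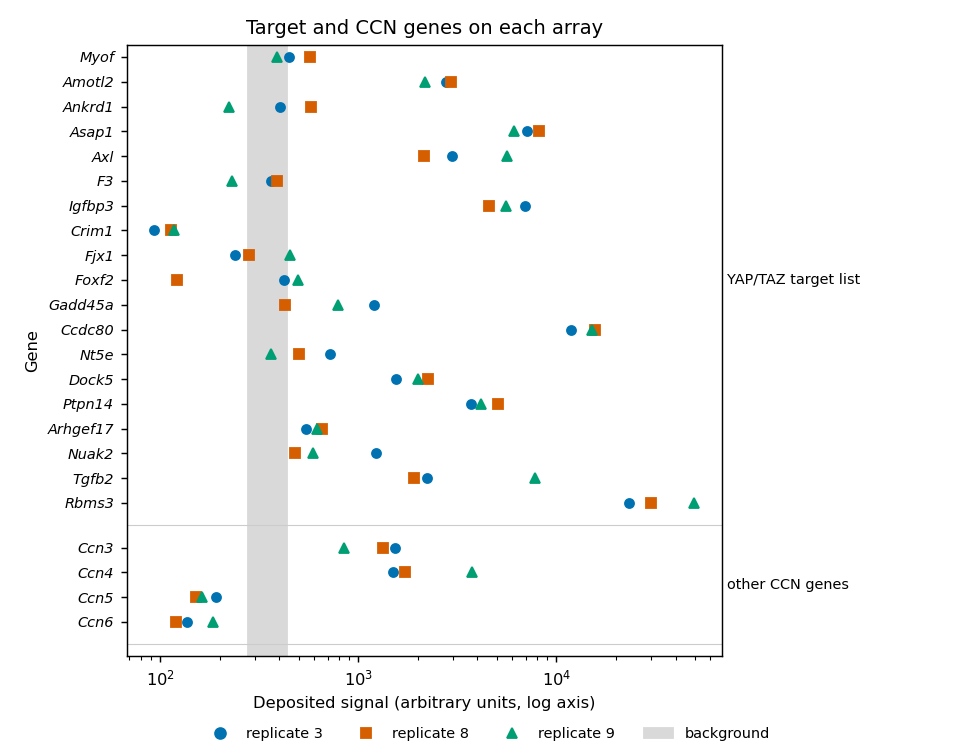
Signal (log axis) on each array of 19 YAP and TAZ target genes other than the members, and of 4 further CCN genes, with the background of the 3 arrays as a grey band. Of the target genes 12 exceed the background of each array, and Tgfb2 spans a log2 range of 2.03.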

How the data were processed

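Signals of 3 ureter samples came from Affymetrix Mouse Genome 430 2.0 arrays (1-colour), after 2 rounds of RNA amplification per the labels' protocols. The deposited values are linear intensities, 1 per probe set and array; GCOS is named in the submitters' processing notes, with no version or settings. The 2% trimmed mean was 1500.0 on each array, so the deposited intensity was scaled to a common mean, and every level is relative to the rest of its array. The medians were 234, 198 and 273 in replicates 3, 8 and 9.

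Of 45101 probe sets, 34958 had 1 symbol in the platform annotation, 932 had several and 9211 are not named here; 34754 matched a RefSeq gene by Entrez ID. Values were taken as log2(signal + 1), and a gene was above background when it exceeded the 95th percentile of 55 measured reference genes (of 60 listed) on each array. The number of arrays limits the precision. With 1 group no test was made. Pathway, target and marker lists were written from general knowledge. The members and lists were chosen with earlier results of these data known. All measured genes of the pathway, target and CCN lists may be named, and the first 3 measured of each other list, and the 3 genes nearest to Ccn1, Ccn2 and the widest member. Python 3.11.15, numpy 2.4.6, pandas 2.3.3, scipy 1.17.1 and matplotlib 3.10.9 were used.

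The alternatives tried were the 90th and 99th percentile, pseudocounts of 16 and 64, quantile normalization, averaging all probe sets of a gene, dropping the _x_at and _s_at probe sets, presence on at least 2 arrays, no filter on low values, and leaving out each replicate. An alternative without Cela1 and Cbln1 in the reference list was chosen after seeing the data.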

Additional observations from a re-analysis of the deposited data

How the results depend on the processing

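The counts of genes above background moved by no more than 1.5 times under each alternative run. Hippo genes above background numbered 8 to 10 of 10. The count was 8 when all probe sets of a gene were averaged, where Lats2 and Tead4 were not above it (44.4% of all named genes were), and 8 with the 99th percentile, where Tead3 and Tead4 were not (47.2%). The other pathway genes above background numbered 25 to 32 of 37, and the target genes 9 to 18 of 19, while the share of all named genes ran from 44.4% to 61.7%; the target count of 9 fell at 44.4% and 47.2%. The count of Hippo genes with a log2 range of at least 1 was 2 of 9, against 15.1% of all genes above background. With the mean of probe sets it was 1 of 8, against 17.2%. When a replicate was left out, ranges are taken over fewer arrays. The count was then 1 without replicate 3 (7.09% of all genes above background), 1 without replicate 8 (8.03%) and 0 without replicate 9 (6.96%). Without replicate 3 or 9 the Ccn1 level came from another of its probe sets. Of 80 range values of single members under the alternatives, 62 moved by no more than 1 SD over the replicates and 18 by more, among them Lats2 with the mean of probe sets (1.33, against 0.32). Some of the 62 could not move. Leaving out the intermediate array keeps the range of a probe set, and averaging does nothing for a gene with 1 probe set. Dropping the _x_at and _s_at probe sets changed the range of Lats2 alone. No paired analysis was possible because the samples form 1 group. Genes near background, such as Tead3 and Tead4, have calls that follow the choice of reference genes, and 3 arrays limit the precision of each spread.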

Other observations

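The CCN family has 4 further genes, which encode secreted proteins built like CCN1 and CCN2. Ccn3 had signals of 1527, 1335 and 851 in replicates 3, 8 and 9, from the brighter of 2 probe sets above background. It was highest in replicate 3 and lowest in replicate 9, as was Ccn2, and its other probe set had the same order (1026, 832 and 642). Ccn4, known as a WNT-induced gene, had 1507, 1715 and 3764, above background and highest in replicate 9. Its other probe set did not share this, with 1287, 1598 and 1277. Ccn5 (192, 152 and 162) and Ccn6 (137, 120.2 and 186) were below background on each array.

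A probe set annotated to both Xpo4 and Lats2 falls outside the rule for members. It had signals of 96, 402 and 1279 in replicates 3, 8 and 9, a log2 range of 3.72, and no Lats2 probe set with a symbol of its own had this order of arrays. Taok3 differed between its probe sets in a similar way, with 213, 529.9 and 1721 by its brightest probe set and 204, 334 and 805 by another, but a log2 range of 0.28 by the next (275, 329 and 334). The last Taok3 probe set (41, 44 and 369) had a log2 range of 3.13 but was below background on each array.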
